A study of Rattus norvegicus with 16 samples.

Results

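Collagen is modified by enzymes on its way out of the cell and crosslinked after secretion, and the 10 genes described here carry out those steps. Prolyl 4-hydroxylases (P4ha1, P4ha2 and P4ha3, the catalytic subunits) hydroxylate prolines, which keeps the collagen triple helix stable at body temperature. Lysyl hydroxylases (Plod1 and Plod2) hydroxylate lysines, and Plod2 acts on the ends of the chains, where hydroxylysine gives the more stable type of crosslink. Serpinh1, the chaperone also called HSP47, binds the folded triple helix in the endoplasmic reticulum and travels with it to the Golgi. Lysyl oxidases (Lox, Loxl1, Loxl2 and Loxl3) work outside the cell, where they turn lysines and hydroxylysines of collagen and elastin into aldehydes that form the crosslinks. In a healing infarct, fibroblasts lay down a collagen scar whose strength and stiffness depend on these steps.

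The genes were taken by name from the deposited tables, as the collagen crosslinking and hydroxylation enzymes. Of the 10, 8 had a row among the 17085 genes, and all 8 were among the 11376 genes that passed the filter on low counts. P4ha3 passed through the ligated groups, because it was nearly undetected in Sham. Loxl3 and P4ha1 were not analysed here.

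Bulk RNA sequencing of the rat infarct zone gave 16 libraries, 4 in each of 4 groups. In MI_stiff and MI_soft the left anterior descending coronary artery was ligated and a stiff or a soft hydrogel, a water-swollen polymer network, was injected into the heart muscle. MI had the ligation without hydrogel, and Sham was the surgical control. All 3 ligated groups therefore share the ligation, and no group received a hydrogel without it. The extraction protocol writes MI/R, often used for reperfused infarcts, and no label says whether blood flow was restored. Strain, sex, age, time after surgery, hydrogel composition and dose are likewise not given. The labels do not tell whether replicates were different rats. The p-values thus reflect only how far libraries of the same group lay apart, technical spread included. Each gene's spread was estimated jointly over all 4 groups, so it also draws on groups outside a comparison.

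Library totals lay between 10940685 and 14456186 counts. MI 2, MI 3, MI 4 and MI_soft 4 stood apart by having between 10470 and 11785 genes with a count, against at least 12019 in each of the other 12 libraries. Log2 differences of the enzymes that changed their call without these 4 libraries are given both ways. Of those that moved without a change of call only some are, so a difference given once was not necessarily stable. This choice was made after the data were seen, and it leaves MI 1 as the only MI library. Cardiomyocyte markers were abundant in every library, and their summed TPM (transcripts scaled for gene length and library total) was 9529 to 19258 in MI_stiff, 14785 to 19528 in MI_soft, 9901 to 16726 in MI and 20096 to 29682 in Sham. Levels per library are given as CPM, counts scaled to library size with TMM factors, for replicates 1 to 4 in order. Differences were tested with edgeR (quasi-likelihood), the p-values were adjusted by Benjamini-Hochberg over the 11376 genes, and a gene was called at an adjusted p under 0.05.

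Promoters are shown for the 3 genes whose windows held the most matches, a choice made after the matches were seen, and whose families are known to respond to low oxygen (Plod2 and P4ha2) or heat stress (Serpinh1) in human and mouse cells. The motifs were the hypoxia response core ACGTG, and the heat shock motifs GAANNTTC and TTCNNGAA, searched on both strands. Each window is the 250 bases before the start of the gene, 5′ to 3′ along the gene's strand, from RefSeq on build GRCr8, and capitals mark every match.
Plod2, chr8:101964068-101964317, plus strand: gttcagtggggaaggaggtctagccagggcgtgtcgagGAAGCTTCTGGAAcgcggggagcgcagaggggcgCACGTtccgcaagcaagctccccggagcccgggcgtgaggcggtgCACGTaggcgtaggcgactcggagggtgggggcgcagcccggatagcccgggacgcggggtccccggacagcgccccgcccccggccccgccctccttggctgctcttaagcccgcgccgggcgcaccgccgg
P4ha2, chr10:38743644-38743893, plus strand: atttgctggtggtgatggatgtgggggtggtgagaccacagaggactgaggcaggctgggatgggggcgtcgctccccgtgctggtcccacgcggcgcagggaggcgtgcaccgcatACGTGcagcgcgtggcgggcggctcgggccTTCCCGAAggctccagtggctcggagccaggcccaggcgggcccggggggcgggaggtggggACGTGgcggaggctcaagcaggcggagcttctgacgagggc
Serpinh1, chr1:163062977-163063226, minus strand: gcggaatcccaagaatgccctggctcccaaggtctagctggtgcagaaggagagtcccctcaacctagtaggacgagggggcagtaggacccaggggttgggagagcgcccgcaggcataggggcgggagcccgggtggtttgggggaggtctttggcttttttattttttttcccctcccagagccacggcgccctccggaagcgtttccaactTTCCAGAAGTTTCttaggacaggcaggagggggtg
The Plod2 window held the core 2 times, both in the reverse orientation CACGT, and the P4ha2 window held it 2 times as ACGTG. The run of capitals at the 5′ end of the Plod2 window is a GAANNTTC and a TTCNNGAA that overlap, the run in the Serpinh1 window is a TTCNNGAA and a GAANNTTC that overlap, and the P4ha2 window held a TTCNNGAA. Of 33469 rat promoter windows of the same length, 16.6% held the core, 7.23% a GAANNTTC and 7.48% a TTCNNGAA. The share of G and C was 74.8% in the Plod2 window, 72.4% in P4ha2 and 60.4% in Serpinh1, beside a median of 51.2% over all windows. Its part in the matches was not tested. Of the 8 genes 6 had a window in the table, and of the other 3 the Plod1 window held a GAANNTTC while those of Loxl1 and P4ha3 held none of the motifs. Lox and Loxl2 were not in the promoter table. A match describes the sequence and shows no binding.

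Most of these transcripts were higher in the ligated groups than in Sham. Loxl1, Plod1, Plod2 and P4ha2 were called higher than in Sham in all 3 ligated groups, and none of the enzymes was called lower in any. P4ha3 is left out of the counts that follow, since a gene that passed the filter through the ligated groups had to differ from Sham. In MI_stiff against Sham 4 of the other 7 were called, where 21.2% of all tested genes were called and 12.7% were called higher. In MI_soft against Sham 5 of 7 were called, with Serpinh1 added, against 26.1% of all genes called and 16.4% called higher. In MI against Sham the same 5 were called, against 36.6% of all genes called and 20.2% called higher. The libraries did not overlap with Sham, all on the higher side, for 4 of the 7 in MI_stiff, 5 in MI_soft and 4 in MI, a separation that 19.3%, 20.9% and 17.7% of all genes showed. The median log2 difference of the 7 was 0.94 in MI_stiff, 0.98 in MI_soft and 0.88 in MI, beside 0.02, 0.01 and 0.06 over all genes. Without the 4 libraries of low detection, 5 of the 7 were called in MI_stiff, 6 in MI_soft (Loxl2 added in each) and 5 in MI, and the share of all genes called was then 41.2%, 36.8% and 27.3%. Per length, the genes were unequal in level: Serpinh1 exceeded 97.1% of genes in MI_stiff, 97.9% in MI_soft, 97.7% in MI and 96.6% in Sham by mean TPM, Loxl1 94.3%, 95.7%, 96.5% and 77.8%, and Plod2 90.7%, 89.3%, 91.0% and 64.6%. The 3 comparisons share their Sham libraries. Because whole tissue was sequenced, more collagen-making cells and more RNA per cell cannot be told apart.

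**Figure D1:**
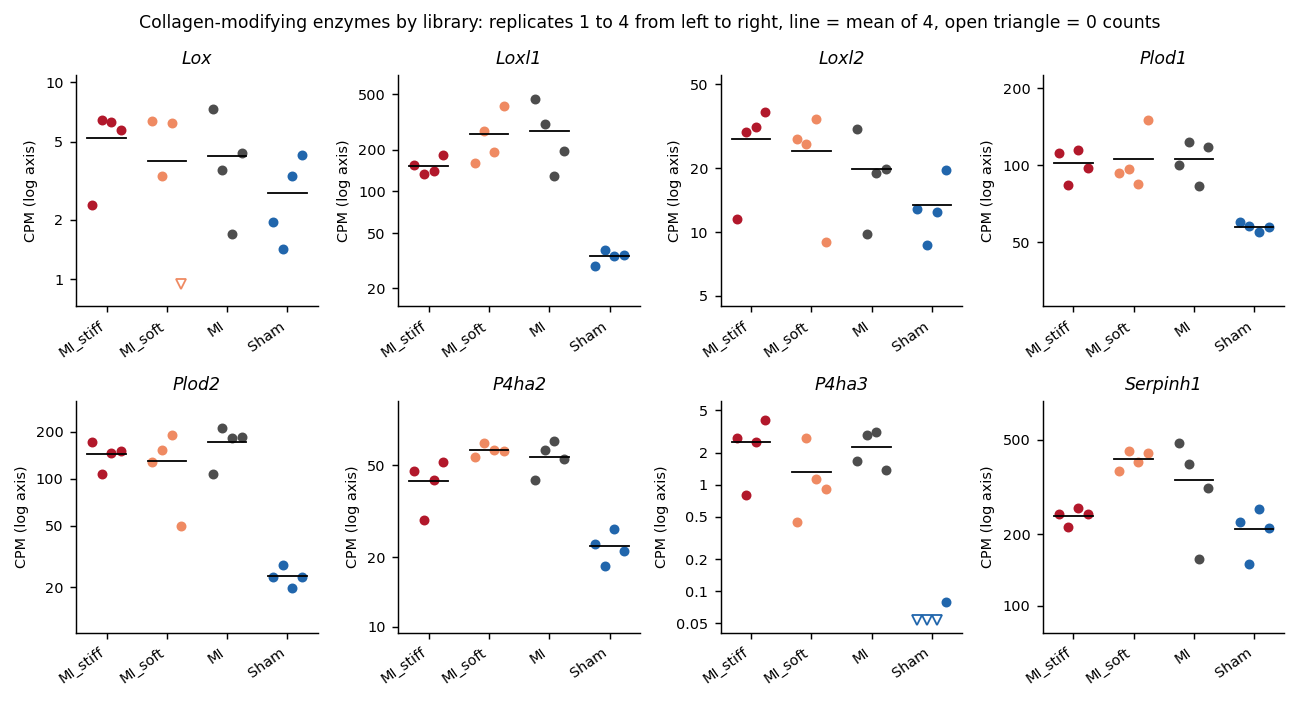
CPM (log axis) of each enzyme in every library, with replicates 1 to 4 of a group from left to right, a line at the group mean and open triangles for libraries with 0 counts. Plod2, Loxl1, Plod1 and P4ha2 lay higher in each ligated library than in each Sham library, whereas Lox and Loxl2 overlapped with Sham in every group. P4ha3 was also apart from Sham, which carries no weight because of the filter.

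Of the prolyl 4-hydroxylases, P4ha3 showed the greatest fold of the whole set and P4ha2 a steady rise of moderate size. P4ha3 had 2.76, 0.804, 2.53 and 4.10 CPM in MI_stiff, 0.448, 2.74, 1.12 and 0.919 CPM in MI_soft, 1.66, 2.93, 3.10 and 1.37 CPM in MI, and 0, 0, 0 and 0.0792 CPM in Sham. The Sham value is 1 count in Sham 4, beside 143 counts summed over MI_stiff, 70 over MI_soft and 110 over MI. P4ha3 was thus close to undetected without ligation and low but present in all 12 ligated libraries. Scaled for library size, the ratio of summed counts to Sham was 128 in MI_stiff (95% interval 22.6 to 5097), 63.9 in MI_soft (11.1 to 2558) and 108 in MI (19.0 to 4304), where the intervals cover counting error only. The fitted log2 differences were 6.41 ± 1.01, 5.46 ± 1.01 and 6.24 ± 1.01 (SE), and they depend on the prior count. No test is given, because of the filter.

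P4ha2 had 47.0, 28.9, 43.1 and 51.7 CPM in MI_stiff, 54.5, 62.3, 58.3 and 57.7 CPM in MI_soft, 43.3, 58.0, 63.4 and 53.3 CPM in MI, and 22.8, 18.4, 26.6 and 21.3 CPM in Sham. All ligated libraries were above all Sham libraries, by the least in MI_stiff 2. Its log2 difference to Sham was 0.94 ± 0.20 in MI_stiff (1.92-fold, edgeR adjusted p = 0.00269), 1.39 ± 0.20 in MI_soft (2.61-fold, edgeR adjusted p = 8.9e-05) and 1.29 ± 0.20 in MI (2.45-fold, edgeR adjusted p = 0.000116). Means ran from MI_soft (58.2 ± 3.18 CPM) over MI (54.5 ± 8.52) and MI_stiff (42.7 ± 9.85) down to Sham (22.2 ± 3.41; SD, n = 4 each). MI_soft and MI did not differ beyond their spread, and all 4 MI_stiff libraries lay below all 4 MI_soft libraries. P4hb, the disulfide isomerase that serves as the other subunit of the enzyme, was also called higher, with log2 differences of 0.77 in MI_stiff, 0.68 in MI_soft and 0.69 in MI.

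The lysyl hydroxylases rose unequally, and Plod2 rose most. Plod2 had 172, 107, 147 and 151 CPM in MI_stiff, 129, 152, 191 and 49.9 CPM in MI_soft, 107, 211, 184 and 184 CPM in MI, and 23.4, 27.9, 20.0 and 23.5 CPM in Sham. The low library among the ligated ones was MI_soft 4, and it still lay above the highest Sham library. The log2 difference to Sham was 2.61 ± 0.33 in MI_stiff (6.09-fold, edgeR adjusted p = 3.05e-05), 2.46 ± 0.32 in MI_soft (5.50-fold, edgeR adjusted p = 3.6e-05) and 2.86 ± 0.33 in MI (7.24-fold, edgeR adjusted p = 6.47e-06), or 2.20 in MI from MI 1 alone, without the libraries of low detection. Plod1 had 112, 84.1, 114 and 97.2 CPM in MI_stiff, 93.0, 96.3, 84.3 and 151 CPM in MI_soft, 100.3, 123, 82.8 and 118 CPM in MI, and 59.9, 57.9, 54.8 and 57.4 CPM in Sham. Its rise was small and even, without overlap with Sham, and MI_soft 4 was here the highest library. The log2 difference was 0.82 ± 0.20 in MI_stiff (edgeR adjusted p = 0.00687), 0.88 ± 0.20 in MI_soft (edgeR adjusted p = 0.00358) and 0.88 ± 0.20 in MI (edgeR adjusted p = 0.00255). For both genes the means of the 3 ligated groups lay within each other's spread, and Sham was the lowest.

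Plod2 made up 40.6% ± 1.76 of the summed TPM of Plod1, Plod2 and Plod3 in MI_stiff, 36.2% ± 16.1 in MI_soft, 43.5% ± 6.54 in MI and 16.3% ± 2.03 in Sham (SD, n = 4 each). In 11 ligated libraries its share was between 35.3% and 51.0%, against 14.0% to 18.9% in Sham, and the exception was MI_soft 4 with 13.1%. The ratio of Plod2 TPM to Plod1 TPM was 1.04 ± 0.127 in MI_stiff, 1.04 ± 0.597 in MI_soft, 1.20 ± 0.365 in MI and 0.302 ± 0.0304 in Sham, so Plod1 led in Sham and neither gene led by more than the spread after ligation. Plod3, which also glycosylates hydroxylysine, was called higher in all 3 comparisons but by less, with log2 differences of 0.73 in MI_stiff, 1.09 in MI_soft and 0.78 in MI.

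**Figure D2:**
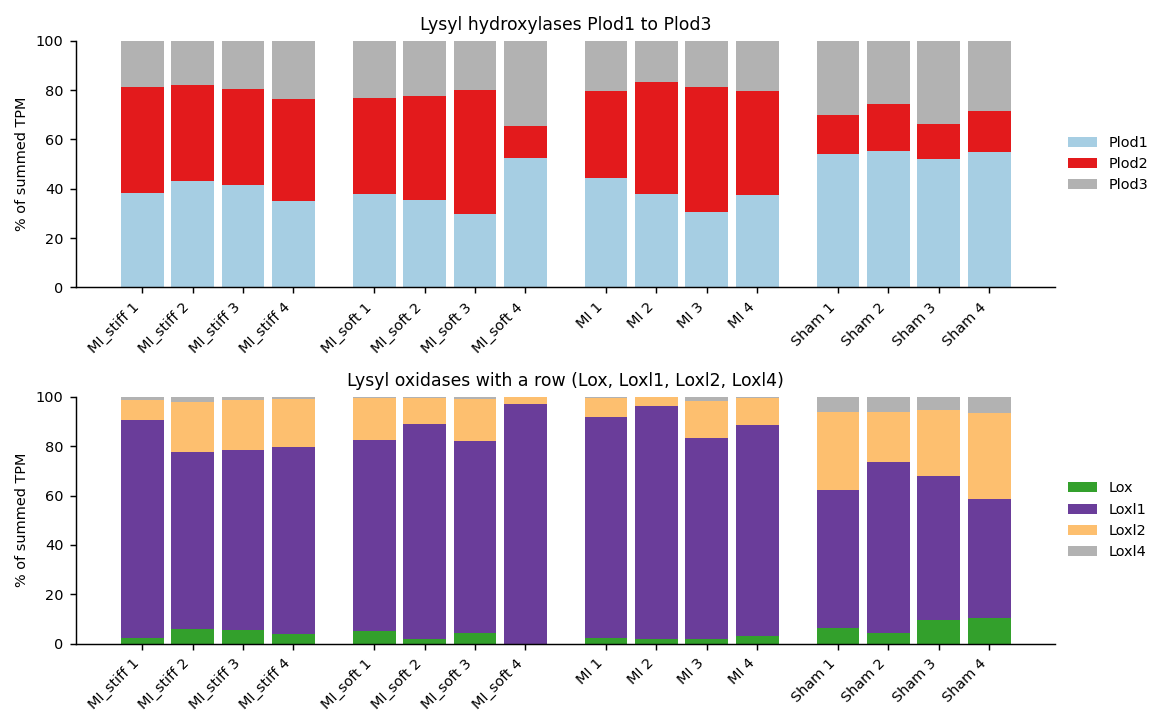
Share of each family's summed TPM (percent) in each library, for the lysyl hydroxylases above and the lysyl oxidases below, from MI_stiff on the left to Sham on the right. Plod2 took 16.3% ± 2.03 of its family in Sham and 35.3% to 51.0% in the ligated libraries other than MI_soft 4, and Loxl1 was the largest part of its family in each library.

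Serpinh1, the collagen chaperone, was the most abundant of the 8 transcripts in every group, with mean TPM of 135 in MI_stiff, 205 in MI_soft, 170.1 in MI and 97.8 in Sham. It had 244, 214, 257 and 242 CPM in MI_stiff, 369, 449.6, 403 and 439 CPM in MI_soft, 485, 393, 157 and 313 CPM in MI, and 225, 150.4, 255 and 213 CPM in Sham. MI_soft lay wholly above Sham and wholly above MI_stiff, MI_stiff overlapped with Sham, and the MI libraries ran from the Sham range (MI 3) to the highest value of all 16 libraries (MI 1). The log2 difference to Sham was 0.98 ± 0.26 in MI_soft (1.97-fold, edgeR adjusted p = 0.0106) and 0.68 ± 0.26 in MI (1.60-fold, edgeR adjusted p = 0.0494). In MI_stiff it was 0.18 ± 0.26 (edgeR adjusted p = 0.67), with a 95% interval of -0.38 to 0.75. The call in MI was at the threshold: MI 3 had the lowest of the MI values, and the call held in 2 of the 16 fits that left out a library, with edgeR adjusted p between 0.0023 (without MI 3) and 0.198 (without MI 1). DESeq2 gave an adjusted p of 0.0532 for it. Without the libraries of low detection the difference in MI was 1.22 (edgeR adjusted p = 0.000882), from MI 1 alone.

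Of the 3 lysyl oxidases among the enzymes, Loxl1 was called in each ligated group and Lox and Loxl2 in none. Loxl1, which is needed to maintain elastic fibres in mice, had 156, 133, 141 and 182 CPM in MI_stiff, 161, 275, 193 and 413 CPM in MI_soft, 464, 308, 130.1 and 197 CPM in MI, and 28.9, 38.0, 34.5 and 34.6 CPM in Sham. Every ligated library had more than any Sham library, and the highest values were those of MI 1 and MI_soft 4. The log2 difference was 2.17 ± 0.34 in MI_stiff (4.49-fold, edgeR adjusted p = 0.000247), 2.94 ± 0.35 in MI_soft (7.66-fold, edgeR adjusted p = 1.43e-05) and 3.01 ± 0.35 in MI (8.08-fold, edgeR adjusted p = 8.06e-06), or 3.79 in MI from MI 1 alone, without the libraries of low detection. In order of means, MI (275 ± 146 CPM) and MI_soft (260.5 ± 113) did not differ beyond their spread, MI_stiff (153 ± 21.5) came next with overlap with both, and Sham (34.0 ± 3.77) was apart from all.

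Lox, the founding enzyme of the family, was low everywhere and was not called. It had 2.37, 6.43, 6.26 and 5.71 CPM in MI_stiff, 6.35, 3.35, 6.21 and 0 CPM in MI_soft, 7.31, 3.60, 1.69 and 4.37 CPM in MI, and 1.94, 1.42, 3.34 and 4.28 CPM in Sham. The groups overlapped throughout, and the 0 was that of MI_soft 4, where 0 counts allow a level of up to 0.251 CPM. Its log2 differences to Sham were 0.92 ± 0.77 in MI_stiff, 0.53 ± 0.77 in MI_soft and 0.63 ± 0.77 in MI, with edgeR adjusted p between 0.44 and 0.632. Without the libraries of low detection the difference was 0.96 in MI_soft and 1.42 in MI, the latter from MI 1 alone. Loxl2, which crosslinks type IV collagen of basement membranes and fibrillar collagen, had 11.5, 29.7, 31.4 and 37.0 CPM in MI_stiff, 27.6, 26.1, 34.1 and 9.03 CPM in MI_soft, 30.9, 9.80, 19.0 and 19.8 CPM in MI, and 12.9, 8.70, 12.4 and 19.7 CPM in Sham. Most ligated libraries were above Sham, and the exceptions were MI_stiff 1, MI_soft 4 and MI 2, the lowest of their groups, with MI 3 within the Sham range. The log2 difference was 1.03 ± 0.42 in MI_stiff (edgeR adjusted p = 0.0919), 0.85 ± 0.42 in MI_soft (edgeR adjusted p = 0.144) and 0.56 ± 0.42 in MI (edgeR adjusted p = 0.302). Without the libraries of low detection it was 1.04 in MI_stiff, 1.13 in MI_soft and 1.21 in MI, the last from MI 1 alone. Loxl2 was called higher without MI_soft 4 in MI_soft (edgeR adjusted p = 0.0359) and in MI_stiff (edgeR adjusted p = 0.0360). In MI_stiff it was also called without MI_stiff 1 (edgeR adjusted p = 0.0398).

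Loxl1 took 77.2% ± 7.56 of the summed TPM of Lox, Loxl1, Loxl2 and Loxl4 in MI_stiff, 84.9% ± 9.39 in MI_soft, 87.7% ± 5.45 in MI and 58.1% ± 8.65 in Sham (SD, n = 4 each), and no ligated library overlapped with Sham. Loxl2 took 17.1% ± 5.95, 11.8% ± 6.84 and 9.29% ± 4.79 in MI_stiff, MI_soft and MI, and 28.2% ± 6.45 in Sham, where its range overlapped with that of MI_stiff. Loxl4, the last of the family with a row, was called lower in MI_soft (log2 difference -1.68 ± 0.55, edgeR adjusted p = 0.0327), and its differences of -0.50 in MI_stiff and -0.97 in MI did not pass the test.

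**Figure D3:**
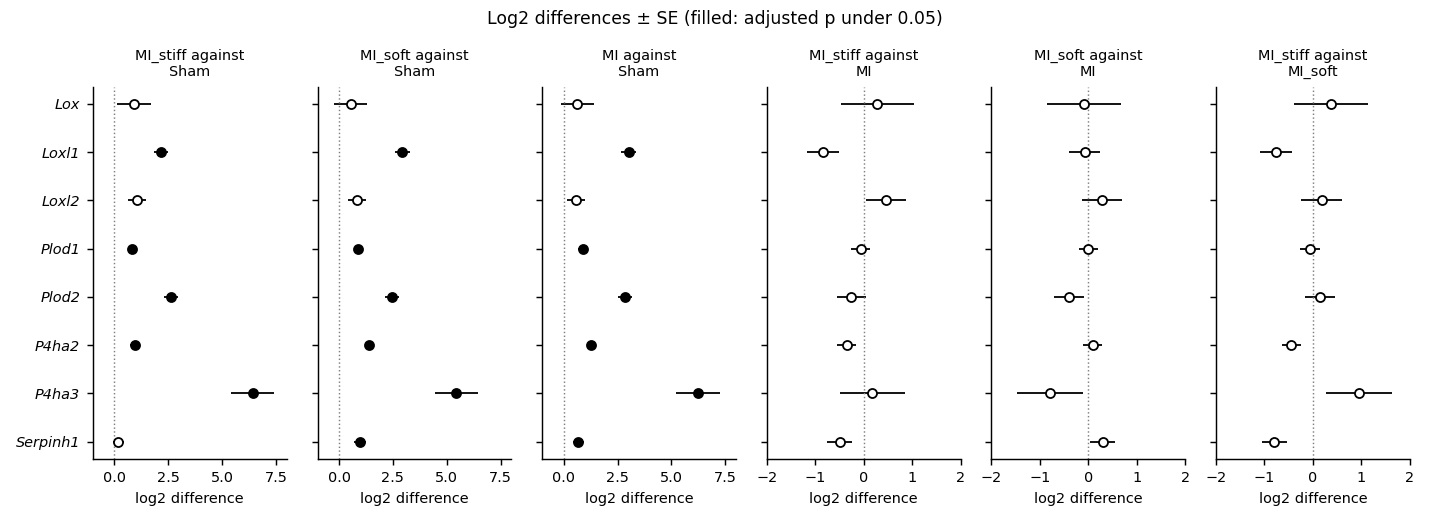
Log2 differences between groups (points, first named group minus second) with standard errors (bars) for each enzyme, filled where the edgeR adjusted p was under 0.05. Filled points stand only in the 3 comparisons with Sham, from 0.68 for Serpinh1 in MI to 6.41 for P4ha3 in MI_stiff, whose test carries no weight because of the filter, and the x axes of the comparisons among ligated groups cover a smaller range.

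The comparisons among the ligated groups ask whether a hydrogel, or its stiffness, changed these transcripts. By edgeR none of the 8 was called in MI_stiff against MI, where 1.19% of all genes were called, in MI_soft against MI, with 0.0264%, or in MI_stiff against MI_soft, with 0.0967%. At an unadjusted p under 0.05 there were 1, 0 and 3 of the 8, beside 17.0%, 15.5% and 14.3% of all genes. DESeq2 called none of the 8, beside 5.12%, 2.58% and 2.44% of all genes in the same order. The lowest p of these 24 tests was that of Serpinh1 between the hydrogels, with 239 ± 18.2 CPM in MI_stiff and 415 ± 36.5 CPM in MI_soft (SD, n = 4 each). Its log2 difference was -0.80 ± 0.26 (95% interval -1.36 to -0.23; edgeR adjusted p = 0.197). P4ha2 was also lower in each MI_stiff library than in each MI_soft library, with a log2 difference of -0.45 ± 0.20 (95% interval -0.88 to -0.02; edgeR adjusted p = 0.321). Such a separation on the lower side was seen for 6.87% of all genes. The third gene at an unadjusted p under 0.05 was Loxl1, with overlapping libraries and a log2 difference of -0.77 ± 0.33 (edgeR adjusted p = 0.306). Serpinh1 was called lower in MI_stiff than in MI_soft with limma-voom and library quality weights (log2 difference -0.74, adjusted p = 0.0249), where 4.47% of all genes were called, and in edgeR without the libraries of low detection (-0.76, adjusted p = 0.0285), where 2.01% were.

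Against MI, Loxl1 differed by -0.85 ± 0.33 on the log2 scale in MI_stiff (95% interval -1.56 to -0.13; edgeR adjusted p = 0.204) and by -0.08 ± 0.33 in MI_soft (95% interval -0.79 to 0.63; edgeR adjusted p = 0.927). Without the libraries of low detection the MI_soft difference was -1.15 (edgeR adjusted p = 0.133). Serpinh1 differed from MI by -0.50 ± 0.26 in MI_stiff (95% interval -1.06 to 0.07) and by 0.30 ± 0.26 in MI_soft (95% interval -0.26 to 0.86). In the same setting, where 1.78% of all genes were called, Loxl1 and Serpinh1 were called lower in MI_stiff than in MI (-1.60, edgeR adjusted p = 0.00252, and -1.02, edgeR adjusted p = 0.0340), but these values set 4 MI_stiff libraries against MI 1, whose spread was assumed to equal that of the other groups. MI 1 had the highest Loxl1 and Serpinh1 of all 16 libraries. Plod1 had 95% intervals of -0.49 to 0.37 in MI_stiff and -0.43 to 0.43 in MI_soft. For Lox and P4ha3 the intervals were wide (-1.38 to 1.95 and -1.29 to 1.64 in MI_stiff), so changes of more than 2-fold in either direction were within them.

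The partners of these enzymes were taken from a list of 32 genes for folding, 3-hydroxylation, glycosylation, export, propeptide removal and fibril assembly, of which 25 were tested. They were called higher for 12 (0 lower) in MI_stiff, 14 (1 lower, Loxl4) in MI_soft and 14 (1 lower, Sec23a) in MI against Sham. Of all tested genes, 12.7%, 16.4% and 20.2% were called higher. The median log2 differences of the partners were 0.73, 0.68 and 0.69. Among the called partners, the 5 with the largest differences in MI were Fmod, Lum, Pcolce, Fkbp10 and Efemp2. Fmod and Lum, proteoglycans that bind collagen fibrils, had log2 differences of 1.89 and 2.15 in MI_stiff, 3.42 and 1.96 in MI_soft, and 3.57 and 2.93 in MI. Fmod in MI_stiff was the only one of these not called (edgeR adjusted p = 0.0658). Pcolce, which speeds up the removal of the C-propeptide, was at 122 ± 15.7 CPM in MI_stiff, 172 ± 73.7 in MI_soft, 155 ± 59.0 in MI and 25.0 ± 4.31 in Sham. Fkbp10, a prolyl isomerase that is required for lysyl hydroxylation of collagen ends by Plod2, was at 70.1 ± 19.0, 94.95 ± 32.1 and 79.5 ± 29.0 CPM in MI_stiff, MI_soft and MI, and at 14.0 ± 2.59 CPM in Sham. Efemp2, or fibulin-4, which brings Lox to elastin, was called higher by 1.83, 2.41 and 2.47 on the log2 scale in MI_stiff, MI_soft and MI. Sec23a, a coat protein of the vesicles that export collagen, was lower by a log2 difference of -1.51 ± 0.54 in MI (edgeR adjusted p = 0.0382), and its values of -0.57 in MI_stiff and -1.14 in MI_soft did not pass. No partner was called among the ligated groups, with 4, 3 and 7 of 25 at an unadjusted p under 0.05 in MI_stiff against MI, MI_soft against MI and MI_stiff against MI_soft. The shares of all genes at that p were 17.0%, 15.5% and 14.3%.

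The substrates, 7 fibrillar collagen chains and elastin, were called higher than in Sham for 8 of 8 in MI_stiff, 7 in MI_soft and 6 in MI. Of all tested genes, 12.7%, 16.4% and 20.2% were called higher. The median log2 differences of the substrates were 2.27, 2.38 and 2.39. Among those called, the 5 largest in MI were Col11a1, a minor chain of cartilage-type fibrils (log2 differences 6.06 in MI_stiff, 6.21 in MI_soft and 5.69 in MI), Col3a1 (2.50, 2.69 and 2.96), Col1a2 (2.50, 2.43 and 2.68), Col1a1 (2.79, 2.55 and 2.47) and Eln, the elastin gene (2.03, 2.33 and 2.31). Col5a3, a chain of type V collagen, was the only substrate called among the ligated groups, with 160 ± 44.1 CPM in MI_stiff and 57.2 ± 29.8 CPM in MI (log2 difference 1.48 ± 0.34, edgeR adjusted p = 0.0415). The number of substrates called in that comparison was 0 to 2 when single libraries were left out.

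Set against the collagen they act on, the enzymes differed from one another. Summed TPM of Col1a1, Col1a2 and Col3a1, the main chains of scar collagen, was 2887 ± 954 in MI_stiff, 2561 ± 448 in MI_soft, 2951 ± 1439 in MI and 395 ± 105 in Sham (SD, n = 4 each). Per 1000 TPM of these chains, a measure chosen after the data were seen, Plod2 stood at 14.1 ± 3.31 in MI_stiff, 12.6 ± 6.44 in MI_soft, 15.4 ± 7.11 in MI and 13.9 ± 3.77 in Sham. Single ligated libraries ran from 4.52 in MI_soft 4 to 23.9 in MI 3, beside 11.2 to 19.4 in Sham. The group means of this ratio were thus alike within the spread, although the level of Plod2 was several-fold higher. Loxl1 likewise stood at 23.1 ± 2.99 in MI_stiff, 37.4 ± 13.8 in MI_soft, 33.6 ± 11.3 in MI and 31.1 ± 8.19 in Sham, with overlap in each case. Serpinh1 stood at 48.6 ± 12.0 in MI_stiff, 80.4 ± 6.04 in MI_soft, 54.7 ± 12.0 in MI and 249.5 ± 57.8 in Sham, and no ligated library reached the Sham range. Plod1 (13.8 in MI_stiff, 13.3 in MI_soft, 12.3 in MI and 45.6 in Sham), P4ha2 (6.89, 9.16, 8.17 and 21.5), Loxl2 (5.37, 4.62, 3.29 and 14.8) and Lox (1.40, 1.06, 0.866 and 4.10) were also lower per collagen than in Sham, as their transcripts rose less than collagen or were not called. P4ha3 was the one gene that was higher per collagen, with 0.590 in MI_stiff, 0.284 in MI_soft, 0.521 in MI and 0.0255 in Sham. This carries no weight, because P4ha3 passed the filter through the ligated groups. Its Sham ratio rests on 1 count in Sham 4 (0.102, beside 0.114 in MI_soft 1). Serpinh1 per collagen was 39.6 to 66.3 in MI_stiff, 72.9 to 87.7 in MI_soft and 42.0 to 65.5 in MI, so each MI_soft library was above each library of the other 2 ligated groups. These ratios were not tested.

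**Figure D4:**
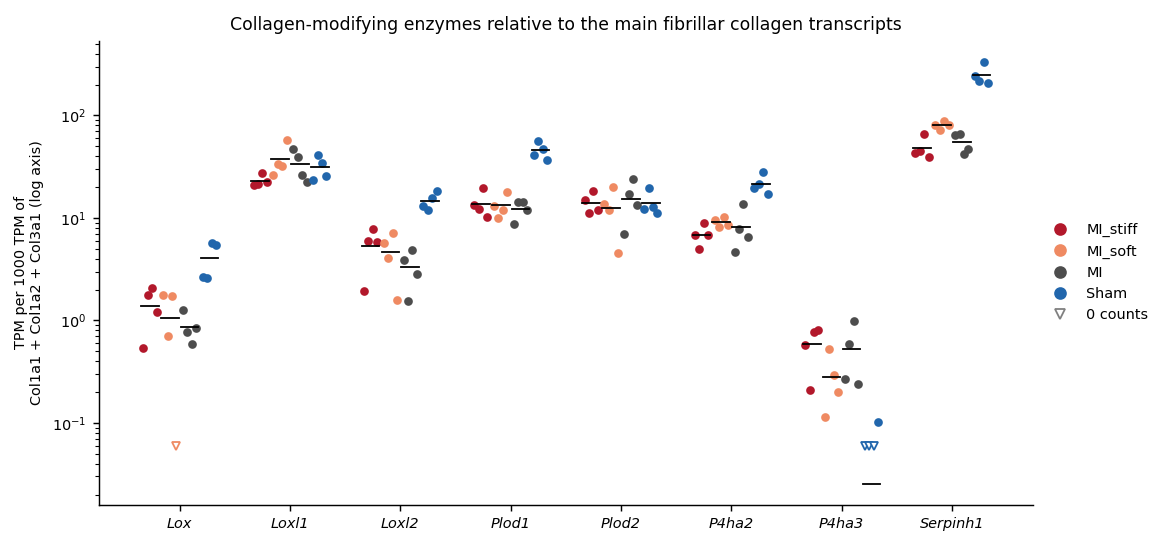
TPM of each enzyme per 1000 TPM of Col1a1, Col1a2 and Col3a1 (log axis) in every library, with lines at the group means and open triangles at 0 counts. Plod2 and Loxl1 overlapped between ligated and Sham libraries, and Serpinh1 was at 39.6 to 87.7 in ligated libraries and at 209 to 334 in Sham. P4ha3 was the one gene with a higher ratio after ligation, which carries no weight because of the filter and the 1 count in Sham.

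Genes induced by low oxygen did not move together. Of 13 tested genes of this list, 2 were called higher and 4 lower in MI_stiff, 1 higher and 5 lower in MI_soft, and 2 higher and 6 lower in MI against Sham. Of all tested genes, 21.2%, 26.1% and 36.6% were called in either direction. The median log2 differences of the genes of this list were -0.13, -0.41 and -0.61. Among those called, the largest in either direction in MI were Hk2 (hexokinase 2), Pdk1 (pyruvate dehydrogenase kinase), Ndrg1, Adm (adrenomedullin) and Egln3 (an oxygen-sensing prolyl hydroxylase). Hk2 differed from Sham by -1.45 in MI_stiff, -1.93 in MI_soft and -2.82 in MI, and Pdk1 by -1.32, -1.42 and -2.28. Egln3 differed by -1.01, -1.11 and -1.19, and all of these were called except Hk2 in MI_stiff (edgeR adjusted p = 0.122). Ndrg1 was called higher in each, by 2.55, 1.33 and 1.98, and Adm in MI only, by 1.54, with 0.85 in MI_stiff and 0.59 in MI_soft. Plod2 and P4ha2 hold 2 hypoxia cores each in their promoter windows. Cardiomyocyte markers were also lower in the ligated groups, and their part in the values of this list was not tested. Slc2a1, the glucose transporter GLUT1, and Pdk1 were called higher in MI_stiff than in MI, by 1.27 ± 0.27 (edgeR adjusted p = 0.0374) and 0.96 ± 0.21 (edgeR adjusted p = 0.0387), and the number of genes of this list called there was 0 to 3 when single libraries were left out.

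Heat shock genes, the class to which Serpinh1 belongs by its induction, were mixed as well. Of 6 tested, 1 was called higher and 2 lower in MI_stiff, 2 higher and 1 lower in MI_soft, and 2 higher and 2 lower in MI. The shares of all genes called in either direction were 21.2%, 26.1% and 36.6%. Hspb1, a small heat shock protein, was at 323 ± 73.9 CPM in MI_stiff, 593 ± 125 in MI_soft, 522 ± 153 in MI and 292 ± 39.8 in Sham, and it was not called in MI_stiff (edgeR adjusted p = 0.703) but was called higher in MI_soft (edgeR adjusted p = 0.00346) and MI (edgeR adjusted p = 0.0088). Dnajb1, a cochaperone, was called higher in all 3 comparisons, by 0.65 in MI_stiff, 0.85 in MI_soft and 0.89 in MI. Hspd1, a mitochondrial chaperonin, was called lower in all 3, by -0.79, -0.86 and -0.94. Bag3, a cochaperone of muscle, was called lower in MI_stiff (-0.83) and MI (-0.68), with -0.15 in MI_soft.

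Across libraries the enzymes formed no single block. Over the 16 libraries Pearson's r of log2 CPM was positive in 25 of 28 pairs and ran from -0.205 (Lox and Plod1) to 0.91 (Plod2 and P4ha3), which includes the difference between ligated and Sham libraries. After the group means were taken away, 14 of the 28 pairs were positive. The highest was then Lox with Loxl2 (0.78) and the lowest Loxl2 with Plod1 (-0.67), Loxl1 went with Serpinh1 (0.70) and with Plod1 (0.56), and Loxl1 and Plod2 ran against each other (-0.54). MI_soft 4 had the lowest Lox, Loxl2 and Plod2 and the highest Plod1 of the ligated libraries. The tested genes most like each enzyme by r over the 16 libraries were Numbl (0.98), Mfap4 (0.97) and Fcgrt (0.97) for Loxl1, Snx7 (0.98), Slc20a1 (0.97) and Slc39a6 (0.97) for Plod2, and Clic1, Plp2 and Prelid1 (0.96 each) for Plod1. For P4ha2 they were Nupr1 (0.96), Ngef (0.95) and Nucb2 (0.95), and for P4ha3 Mmp19 (0.95), Anxa4 (0.95) and Fn1 (0.94). For Serpinh1 they were Os9 (0.94) and the unnamed genes LOC100361259 and LOC100360491 (0.94 each, with the same r), for Lox Nr2f2 (0.93), Cald1 (0.92) and Sik1 (0.91), and for Loxl2 Antxr1 (0.92), Dpysl3 (0.91) and Sesn3 (0.91). These libraries share the group difference, so the values describe likeness in these data and no more.

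Markers of several cell types moved with the same contrast. Summed TPM of 6 fibroblast markers was 1715 to 3008 in MI_stiff, 1342 to 2591 in MI_soft, 2203 to 3662 in MI and 542 to 647 in Sham, with 5, 5 and 6 of the 6 called higher. This list shares Col1a1 with the substrates and Lum with the partners. Summed TPM of 3 myofibroblast markers was 94.0 to 210.1 in MI_stiff, 51.3 to 166 in MI_soft, 98.6 to 353 in MI and 4.88 to 7.83 in Sham, with 3 of 3 called higher in each. MI_soft 4 was the lowest ligated library and MI 1 the highest in both lists. Summed TPM of 5 macrophage markers was 342 to 1950 in MI_stiff, 1209 to 2453 in MI_soft, 206 to 1130 in MI and 59.3 to 90.5 in Sham, with 5 of 5 called higher in each, and MI_soft 4 was the highest. Summed TPM of 3 smooth muscle markers was 112 to 222 in MI_stiff, 266 to 369 in MI_soft, 160.2 to 652 in MI and 71.9 to 157 in Sham. Smooth muscle markers were thus higher in every MI_soft library than in every MI_stiff library, as was Serpinh1. Against Sham, 1 of the 3 was called higher and 1 lower in MI_stiff, and 2 were called higher in each of MI_soft and MI. Lymphocyte markers and 2 red blood cell markers separated MI_soft from MI_stiff in the same way. Summed TPM of the red blood cell markers was 287 to 1439 in MI_stiff, 1449 to 2662 in MI_soft, 296 to 1517 in MI and 1340 to 2860 in Sham. Cardiomyocyte markers were lower, with 5, 4 and 4 of 6 called in MI_stiff, MI_soft and MI, and lymphocyte markers were at 2.89 to 6.93 TPM in MI_stiff, 29.7 to 279 in MI_soft, 0 to 29.2 in MI and 1.21 to 4.31 in Sham. Of 3 chondrocyte or bone markers, summed TPM was 1.24 to 14.8 in MI_stiff, 3.13 to 11.8 in MI_soft, 0.50 to 14.8 in MI and 0.13 to 0.32 in Sham, and of 2 endothelial markers it was 40.7 to 101, 38.4 to 50.7, 45.7 to 83.1 and 53.1 to 82.6. Of 3 mesothelial markers, summed TPM was 15.7 to 64.2 in MI_stiff, 4.0 to 19.8 in MI_soft, 4.74 to 17.8 in MI and 5.29 to 7.43 in Sham, with 1 of 2 tested called higher in each, and Upk3b was at 0 in all MI libraries. The part of these markers in the differences of the enzymes was not tested.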

How the data were processed

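Infarct-zone RNA of 16 rat libraries was sequenced, and the authors deposited expected counts and TPM per gene. Per the submitters' processing notes, STAR 2.7.3a, RSEM 1.3.1 and build rn7 were named. No source used here gives the annotation or strand setting. Genes were matched by the symbols in the deposited tables. Expected counts, of which 0.785% were not whole, were rounded. Genes were kept by edgeR's filterByExpr (minimum count 10, minimum total 15) and scaled with TMM. They were tested with edgeR 4.0.16 (quasi-likelihood, robust, default prior count) in R 4.3.3, with all 16 libraries in one fit and groups as the only term. Benjamini-Hochberg adjustment covered 11376 genes, and log2 CPM used a prior count of 2. Alternatives used DESeq2 1.42.0 and limma 3.58.1 (voom on counts, or log2 of TPM plus 1 or 0.1). In simulated data the same fit called 13% to 26% of genes changed 2-fold and 60% to 69% of those changed 4-fold, across comparisons. Most 2-fold changes were thus missed there. Genes of the partner, substrate, hypoxia and heat shock lists are named where their difference was among the 5 largest called in MI against Sham, or called among the ligated groups. Loxl4, Plod3, P4hb and Sec23a are named outside that rule, after their values were seen. The most alike genes are the 3 with the highest r. Members and lists were chosen with earlier results of these data known. Intervals of log2 differences used the SE and the residual degrees of freedom, and intervals for counts cover counting error only.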

Additional observations from a re-analysis of the deposited data

Results flagged for a closer look

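Of 104 groups of 4 values examined, 6 held a value far from the other 3 by Dixon's criterion, and chance gives about 1 in 20. P4ha3 was at 0.0792 CPM in Sham 4 and at 0 in the other Sham libraries, and the same single count gave 0.102 TPM per 1000 TPM of the main collagen chains. With the other 3 values at 0, any count is flagged, so the chance rate does not apply to P4ha3 in Sham. In MI_stiff 1, Loxl2 took 8.18% of the lysyl oxidase TPM, against 19.4%, 20.2% and 20.5% in the other MI_stiff libraries, and the ratio of Loxl1 to Loxl2 TPM was 10.8, against 3.55, 3.56 and 3.90. In MI_soft 4 that ratio was 36.3, against 4.49, 4.62 and 8.35 in the other MI_soft libraries. Summed TPM of Col1a1, Col1a2 and Col3a1 was 4301 in MI_stiff 4, against 2306, 2322 and 2619 in the other MI_stiff libraries. The causes were not tested.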

How the results depend on the processing

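The calls of Loxl1, Plod1, Plod2 and P4ha2 against Sham held under each alternative run. P4ha3 was removed by the filter with MI_soft and Sham alone, and it was not called in MI_soft against Sham with limma on log2(TPM + 1). Serpinh1 in MI against Sham lost its call with voom (adjusted p = 0.0875), with voom and quality weights (0.0700), on log2 TPM (0.183 and 0.191), with no filter (0.0623), without mitochondrial genes (0.0636), with the 2 groups alone (0.125) and with the replicate block (0.0904), and kept it without TMM (0.0435). Loxl2 was called against Sham with quality weights in MI_stiff (adjusted p = 0.00428) and MI_soft (0.00101), and with the 2 groups alone in MI_stiff (0.0243). Without Sham 4, the one Sham library with a P4ha3 count, the fitted log2 difference of P4ha3 was 8.07 in MI_stiff, 7.08 in MI_soft and 7.88 in MI. Without TMM the median log2 difference of all genes to Sham was 0.35 in MI_stiff, 0.23 in MI_soft and 0.24 in MI.

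The number of enzymes called was 2 in MI_stiff against MI without the low-detection libraries, and 1 in MI_stiff against MI_soft with quality weights and 1 without those libraries, against 0 in each otherwise. The share of all genes called was 1.78%, 4.47% and 2.01% in these fits, against 1.19% in MI_stiff against MI and 0.0967% in MI_stiff against MI_soft with all libraries in edgeR. Replicate numbers were shared by label only: deviations of same-numbered libraries correlated above 0.1 in 5 of 24 pairs, and 3 of 16 libraries were most like their own number. With the replicate block, Loxl1, Plod1, Plod2 and P4ha2 were called against Sham in each ligated group, and Serpinh1 in MI_soft only. P4ha3 was called in each too, which carries no weight because of the filter. The share of all genes called was then 18.3% in MI_stiff, 22.6% in MI_soft and 33.3% in MI. No enzyme was called in the other comparisons, where the share was 0.299% in MI_stiff against MI, 0% in MI_soft against MI and 0.0264% in MI_stiff against MI_soft.

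Directions turned only for differences that were not called, and the cause was not tested. In MI_soft against Sham, Lox was -0.62 with voom and -0.0783 on log2(TPM + 0.1). In MI_soft against MI, Lox was 0.37 with quality weights, Loxl1 was 0.0434 and 0.0463 on log2 TPM, and Plod1 was -0.0221 with voom, -0.24 with quality weights, -0.00528 with no filter, -0.00552 without mitochondrial genes and -0.0139 with the replicate block. Without the low-detection libraries, that comparison gave -0.0824 for Loxl2, -0.15 for Plod1, 0.55 for Plod2 and -0.26 for Serpinh1. In MI_stiff against MI, they gave -0.50 for Lox, -0.18 for Loxl2, 0.0233 for Plod1 and 0.43 for Plod2, while Plod1 was 0.18 and 0.19 on log2 TPM and 0.12 without TMM, and Plod2 was 0.0200 and 0.0195 on log2 TPM. In MI_stiff against MI_soft, they gave -0.0276 for Lox, -0.0932 for Loxl2, 0.17 for Plod1 and -0.12 for Plod2. There, quality weights gave -0.00313 for Loxl2, 0.12 for Plod1 and -0.0807 for Plod2, and Plod1 was 0.18 and 0.18 on log2 TPM and 0.10 without TMM.

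Over the fits that left out 1 library, turned differences ranged in MI_soft against MI from -0.41 to 0.31 for Lox, -0.40 to 0.28 for Loxl1, -0.23 to 0.10 for Plod1 and -0.0161 to 0.16 for P4ha2. In MI_stiff against MI they ranged from -0.15 to 0.0520 for Plod1 and -0.14 to 0.48 for P4ha3. In MI_stiff against MI_soft they ranged from -0.0256 to 0.70 for Lox, -0.0916 to 0.43 for Loxl2, -0.16 to 0.17 for Plod1 and -0.11 to 0.39 for Plod2. Lox and P4ha3 had under 10 CPM in each library, and Lox had 137 to 285 counts summed over a group.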
